A study of Mus musculus with 2 samples.

Results

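Klf2, Klf4, Nos3, Txnip and Slco2a1 are 5 genes of the endothelial response to shear stress, the drag of flowing blood on the vessel wall. They were chosen by name from the 19831 genes of both expression tables, and all 5 were present. Adult C57BL/6 mice bore the tumours, and their endothelial cells, sorted by CD31, were measured on the 10x Genomics droplet system with 3′ v3.1 chemistry. A control library was set beside one titled NF2 KO, where Nf2, which encodes the Hippo pathway regulator merlin, was knocked out. The name of each cell carries a run number, 1 or 2, before its barcode. No label explains this number, so the 4 runs are parts of 2 samples and not replicates. The tumour type, the allele, the line that removes it and the number of mice pooled are not given in the sources used here.

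Endothelial cells sense steady flow through junctional and membrane sensors. A kinase relay of MEKK3, MEK5 and ERK5 passes the signal to MEF2 factors, which switch on the zinc-finger transcription factors KLF2 and KLF4. The CCM complex restrains that relay. KLF2 and KLF4 raise Nos3, the endothelial nitric oxide synthase, and other genes of quiescent vessels, and they hold down inflammatory and vasoconstrictor genes such as Edn1. Slco2a1 encodes a prostaglandin uptake transporter, and Txnip encodes a thioredoxin-binding arrestin that also answers to glucose and to flow. Klf2 and Klf4 are early response genes too, so tissue dissociation can raise them, and dissociation genes are given beside them below.

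The promoters of Klf2, Klf4 and Txnip are shown because these genes differed between states and between cells along the dissociation genes. RefSeq (GRCm38.p6) held an entry for 4 of the 5 genes, each of 250 bases before to 50 bases after the start that RefSeq gives. The Slco2a1 window does not hold the start of that gene given below, so its letters are not used. Capitals mark the MEF2 core in Klf2 (CTA and TAG with any 4 bases between them) and the carbohydrate response element in Txnip (CACGAG at both ends of any 5 bases). The windows are chr8:72318812-72319111 on the plus strand, chr4:55532426-55532725 on the minus strand and chr3:96557707-96558006 on the plus strand, each written 5′ to 3′.
Klf2 promoter: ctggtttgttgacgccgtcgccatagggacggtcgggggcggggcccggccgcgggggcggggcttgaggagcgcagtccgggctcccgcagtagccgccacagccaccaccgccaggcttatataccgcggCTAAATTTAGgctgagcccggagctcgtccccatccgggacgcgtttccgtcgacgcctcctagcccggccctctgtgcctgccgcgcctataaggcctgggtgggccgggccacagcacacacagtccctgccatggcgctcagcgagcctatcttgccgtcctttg
Klf4 promoter: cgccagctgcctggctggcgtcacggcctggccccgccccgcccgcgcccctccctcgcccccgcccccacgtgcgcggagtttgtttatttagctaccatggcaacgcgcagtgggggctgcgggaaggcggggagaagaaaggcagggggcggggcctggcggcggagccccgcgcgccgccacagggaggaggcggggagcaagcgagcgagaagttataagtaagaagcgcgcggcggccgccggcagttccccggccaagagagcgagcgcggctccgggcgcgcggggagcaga
Txnip promoter: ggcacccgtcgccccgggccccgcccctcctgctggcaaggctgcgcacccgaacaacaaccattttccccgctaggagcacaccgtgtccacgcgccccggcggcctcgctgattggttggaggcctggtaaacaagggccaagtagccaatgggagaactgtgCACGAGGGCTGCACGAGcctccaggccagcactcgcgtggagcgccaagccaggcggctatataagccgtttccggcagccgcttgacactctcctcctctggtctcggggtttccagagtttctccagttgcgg
The Klf2 window held 1 MEF2 core (CTAAATTTAG), which starts at base 133 of the window, and the windows of Klf4 and Txnip held none on either strand. Of 32851 promoters of the same length, 3.69% held that core. The form of the Txnip element searched here is known from this gene, so its match there was fixed in advance. Txnip was the 1 promoter of 32851 that held it, and other forms of the element were not searched. CACCC, the GT box that KLF factors bind, was found in 57.5% of promoters on either strand. It was found once in Klf2, at 2 places in Txnip and at none in Klf4. The motifs do not overlap in these windows, and a match is a description of the letters only.

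The deposited tables held 2826 control and 3368 knockout cells, with 34649992 and 58907098 UMIs (molecules counted by unique molecular identifiers). The median depth was 2746 and 19409 UMIs per cell in the control runs, against 14337 and 16723.5 in the knockout runs. After removal of shallow clusters, of clusters with leukocyte markers and of likely doublets, 1358 control and 2708 knockout cells remained. They are called the retained cells and had medians of 17598 and 17089.5 UMIs. Runs shared at most 1 cell barcode with each other. All 18 endothelial markers averaged above 20 CPM (counts per 1000000 UMIs), with summed levels of 10353 CPM in control cells and 7829 CPM in knockout cells. Markers of macrophages summed to 64.7 and 82.7 CPM and those of neutrophils to 80.8 and 102 CPM, with Adgre1 and Csf1r under 1 CPM in both libraries. Pericyte markers summed to 168 and 63.0 CPM. Kcnj8 (106 and 14.1 CPM), Abcc9 (48.4 and 12.6 CPM) and Tagln (4.36 and 25.4 CPM) made up most of this, while Pdgfrb and Cspg4 were under 1 CPM. Of 5 transcripts read here as signs of RNA quality, Gm42418, Gm26917 and Lars2 were higher in the knockout library and Malat1 and Neat1 were not called. The 5 summed to 31974 and 48482 CPM, and their part in the results below was not tested. Nf2 itself stood at 22.03 CPM in control cells against 20.1 CPM in knockout cells, and 3′ tags can lie outside a deleted part, so this does not check the labels.

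Txnip and Slco2a1 were higher in the knockout library, Klf2 and Klf4 stood somewhat above the control, and Nos3 stood below it. A gene was called higher or lower where its ratio of CPM, knockout over control, was at least 1.5 in either direction, its 95% counting interval excluded 1 and its mean was at least 20 CPM. By that rule 2 of the 5 genes were higher (2.76% of 5838 genes) and none was lower (5.5% of 5838 genes). With 1 library per group there is no test between the conditions, and the brackets below give intervals for counting error only. Fewer cells of a kind and less RNA per cell cannot be told apart in such sums.

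Klf2 (ENSMUSG00000055148.7, chromosome 8, 72319033 to 72321656, plus strand of GRCm38) was measured at 257 and 226 CPM in the control runs and at 343 and 294 CPM in the knockout runs. Both knockout runs lay above both control runs, and the ratio was 1.29 (1.26 to 1.33), from 6565 and 16142 UMIs. Between the runs of 1 library, run 2 over run 1 was 0.882 for control cells and 0.857 for knockout cells. Among the 4 pairings of a knockout with a control run the ratio went from 1.14 to 1.52. None of the 5 genes passed the size rule between the runs of 1 library. In the control library 0.768% of genes did (0.273% higher and 0.495% lower in run 2), and in the knockout library 1.23% did (0.984% higher and 0.242% lower).

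Klf4 (ENSMUSG00000003032.8, chromosome 4, 55527143 to 55532466, minus strand) stood at 86.0 and 63.8 CPM in the control runs. In the knockout runs it stood at 101 and 108 CPM. Again the runs of the libraries did not overlap, with a ratio of 1.42 (1.35 to 1.49) that falls short of the size rule. Control run 2 held the lowest level, and the control runs differed from each other by a ratio of 0.741. The ratio was 1.65 without control run 1 and 1.53 with likely doublets kept, so in both settings Klf4 would be called higher.

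Nos3 (ENSMUSG00000028978.12, chromosome 5, 24364810 to 24384474, plus strand) went the other way. Its level was 99.2 and 110 CPM in the control runs and 80.9 and 80.0 CPM in the knockout runs. The knockout level was 1.31-fold lower (1.248 to 1.37), and the knockout runs were nearly equal to each other. Nos3 thus stood below the control in the library where both of its known activators stood above it.

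Txnip (ENSMUSG00000038393.14, chromosome 3, 96557957 to 96561883, plus strand) had levels of 121 and 90.0 CPM in the control runs and of 204 and 200 CPM in the knockout runs. The ratio was 1.92 (1.84 to 2.005), higher than that of 98.9% of the genes measured. Slco2a1 (ENSMUSG00000032548.14, chromosome 9, 102988712 to 103096002, plus strand) had the highest ratio of the 5, at 2.37 (2.15 to 2.62). Its levels were 15.9 and 19.8 CPM in the control runs and 41.0 and 43.4 CPM in the knockout runs. Some clusters had Cldn4, Tagln or Hbb-bs (markers of other cell types) but none of the endothelial markers in the lead. They held 98 control and 1341 knockout cells, and without them the ratio of Slco2a1 was 3.95 (3.56 to 4.38). Among them was a cluster of 17 control and 869 knockout cells. A cluster of 574 control and 8 knockout cells, with the pericyte marker Kcnj8 and the endothelial marker Cldn5 in the lead, stayed in. The libraries thus lost cells unevenly in this setting. For each of the 5 genes both knockout runs lay on the same side of both control runs, which was so for 64.9% of the 5838 genes (27.5% higher and 37.3% lower).

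**Figure D1:**
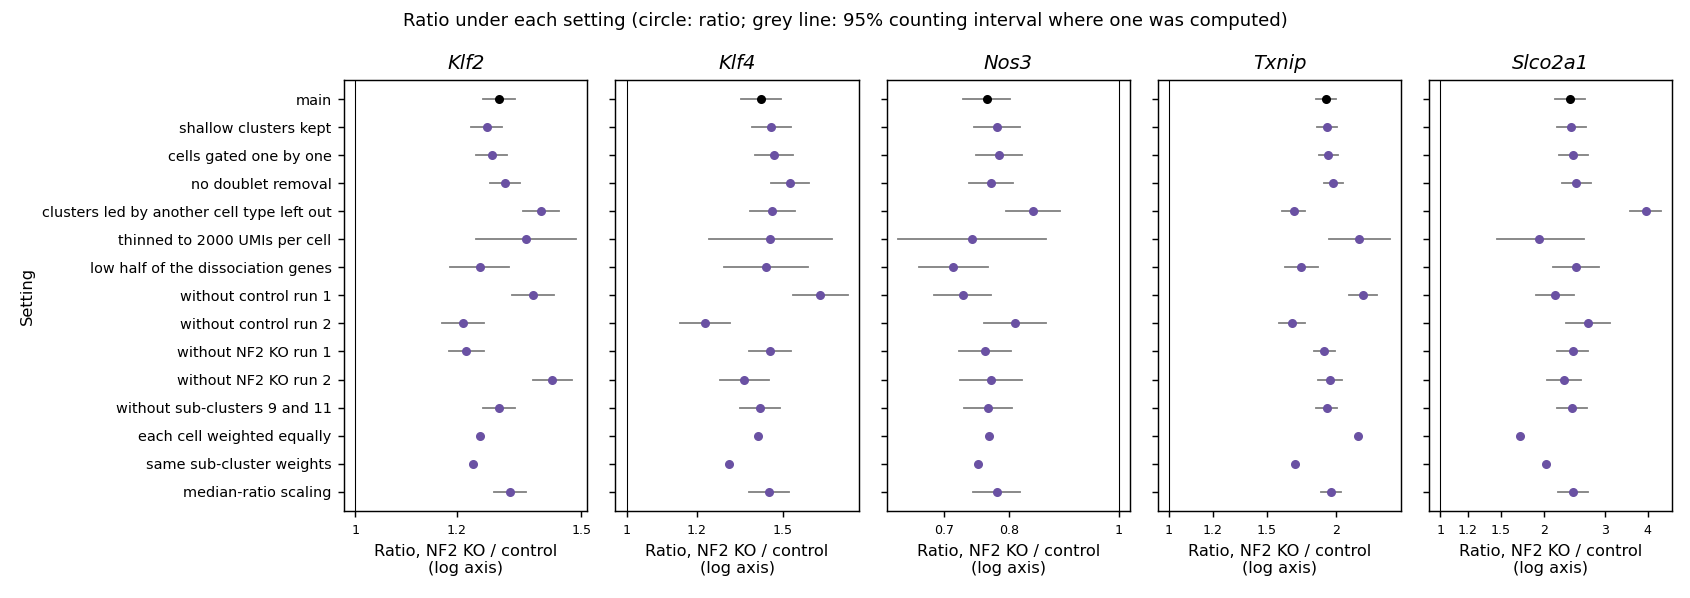
Ratio of CPM (knockout over control, log axis) of each gene as reported (black) and under 14 other settings (purple), with 95% counting intervals where one was computed. The circles of Klf2, Klf4, Txnip and Slco2a1 stay above 1 and those of Nos3 below 1, and the widest range is that of Slco2a1, from 1.70 to 3.95.

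**Figure D2:**
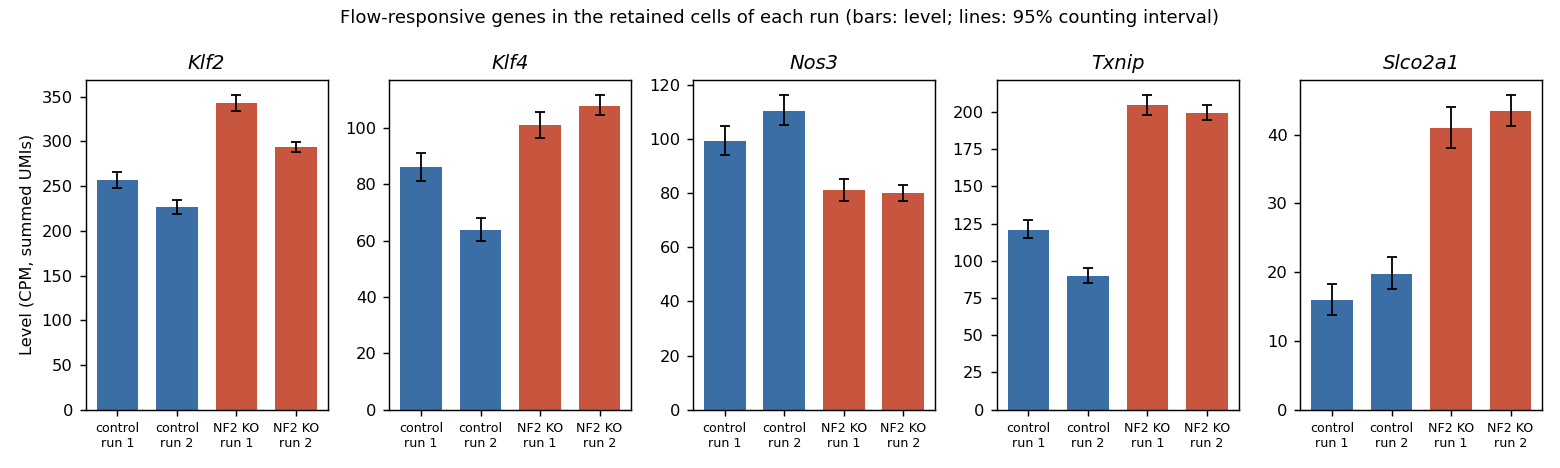
Level of each gene (CPM, linear axis from 0) in the retained cells of each run, control in blue and knockout in red. Lines are 95% counting intervals. The knockout bars of Klf2, Klf4, Txnip and Slco2a1 stand above both control bars, and those of Nos3 stand below them.

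The share of cells with at least 1 UMI was compared after each cell had been thinned to 2000 UMIs, which left out 50 control and 10 knockout cells. Klf2 was found in 28.0% (25.6 to 30.5) of control and 36.2% (34.4 to 38.1) of knockout cells. Before thinning the shares were 67.2% and 75.6%. Txnip was found in 17.9% (15.8 to 20.1) and 30.8% (29.0 to 32.5) of thinned cells, and in 61.3% and 79.9% before thinning. Klf4 was found in 12.2% and 17.2% of thinned cells (45.3% and 57.8% before), and Slco2a1 in 3.67% and 6.49% (12.3% and 20.5% before). Nos3 was found in 18.7% and 14.7% of thinned cells (71.4% and 63.6% before). The only cells at hand for a background were 83 cells in clusters with leukocyte markers that had not been left out for depth. Their median was 2874 UMIs, and their endothelial markers summed to 8378 CPM, close to the 8699 CPM of the retained cells, so they do not stand for cells that lack endothelial RNA. Thinned, 57 of them gave shares of 15.8% for Klf2, 5.26% for Klf4, 15.8% for Nos3, 10.5% for Txnip and 0 of 57 for Slco2a1, which allows up to 6.27%. No background from free RNA could be set from these cells, so the shares of all 5 genes are given as values only.

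The retained cells were clustered again without these 5 genes and without the genes that differ between the libraries, with values centred within each run. Of 12 sub-clusters, 8 had at least 50 cells in each library. From their leading genes 5 of these are called venous-like (Ackr1, Selp and Sele among 10 leading genes), capillary-like (Ramp3, Ednrb, Cd300lg), interferon-like (6 markers, with Ifit2 and Rsad2), hypoxic-like (Bnip3, Vegfa, Egln3, Slc2a1) and cycling-like (Top2a, Mki67, Ube2c, Cenpf). Summed venous markers were also 1.52 times as high in the capillary-like sub-cluster as in the other cells, against 1.07 times for capillary markers. Most of that venous sum was the gene Ctla2a. The name capillary-like thus rests on the leading genes Ramp3, Ednrb and Cd300lg and not on the summed list. Macrophage markers were 3.88, neutrophil markers 2.60 and fibroblast markers 2.08 times as high in the venous-like sub-cluster as elsewhere, and their part in its levels was not tested. The other 3 are called by leading genes: Gal, Cldn4 and Apln; Cenpa and Cdc20; and Hbb-bs and Piezo2. In the last, erythroid markers were 7.15 and pericyte markers 2.34 times as high as in the other cells. Erythroid markers were also 5.85 times as high in the Cenpa and Cdc20 sub-cluster, and epithelial markers 2.45 times as high in the Gal, Cldn4 and Apln sub-cluster. The part of these markers in the levels was not tested. Levels and ranks across sub-clusters below are of these 8 only, unless stated. Outside them, a sub-cluster led by Sult1a1, Cyp4b1 and Lpl held 16 control and 220 knockout cells, too few control cells for the limit of 50. Capillary markers were 2.80, neutrophil markers 7.575 and pericyte markers 2.12 times as high there as in the other cells. Since the genes in hand were left out of the clustering, their levels across the sub-clusters did not shape them.

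Slco2a1 was the most unevenly spread of the 5. In the control library it stood at 164 CPM in the venous-like cells, 28.8 CPM in the capillary-like cells and 9.06 CPM in the interferon-like cells. It stood at 0.339 CPM, from 1 UMI, in the hypoxic-like cells. In the knockout library it stood at 267 CPM in the venous-like, 86.0 CPM in the capillary-like, 51.5 CPM in the cycling-like and 0.615 CPM in the hypoxic-like cells. In both libraries the runs of the venous-like cells lay above those of every other sub-cluster. On the log2 scale with 10 CPM added, the spread between the highest and the lowest of the 8 sub-clusters was 4.12 among control and 4.70 among knockout cells. That exceeded 99.2% and 99.6% of the genes measured. Nos3 had the smallest spread of the 5, at 0.77 in control cells, near the median of 0.75 over all genes, and at 1.05 in knockout cells, where it exceeded 71.7% of genes (median 0.74). Its knockout levels went from 47.5 CPM in the Hbb-bs and Piezo2 sub-cluster to 109 CPM in the venous-like cells.

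Klf2 also had its highest levels in the venous-like and the capillary-like cells. In that order these were 457 and 452 CPM in control cells against 481 and 366 CPM in knockout cells, with runs that overlap between the pair. The lowest control level was 122 CPM, in the Hbb-bs and Piezo2 sub-cluster, and the lowest knockout level 188 CPM, in the Cenpa and Cdc20 sub-cluster. In the knockout library the runs of every neighbouring pair from the first to the seventh sub-cluster overlapped. Klf4 was again highest in the venous-like cells, at 199 and 250 CPM. In its second place stood the hypoxic-like cells, at 133 and 150 CPM, where Klf2 was low in the control library (157 CPM). In the control library the runs of the venous-like cells did not overlap those of the hypoxic-like cells for Klf4, and likewise in the knockout library. Txnip had the same pair at the top of the control library, at 232 CPM in the venous-like and 191 CPM in the hypoxic-like cells, though with overlapping runs. In the knockout library Txnip stood at 323 CPM in the venous-like cells, 291 CPM in the Hbb-bs and Piezo2 sub-cluster and 281 CPM in the hypoxic-like cells.

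**Figure D3:**
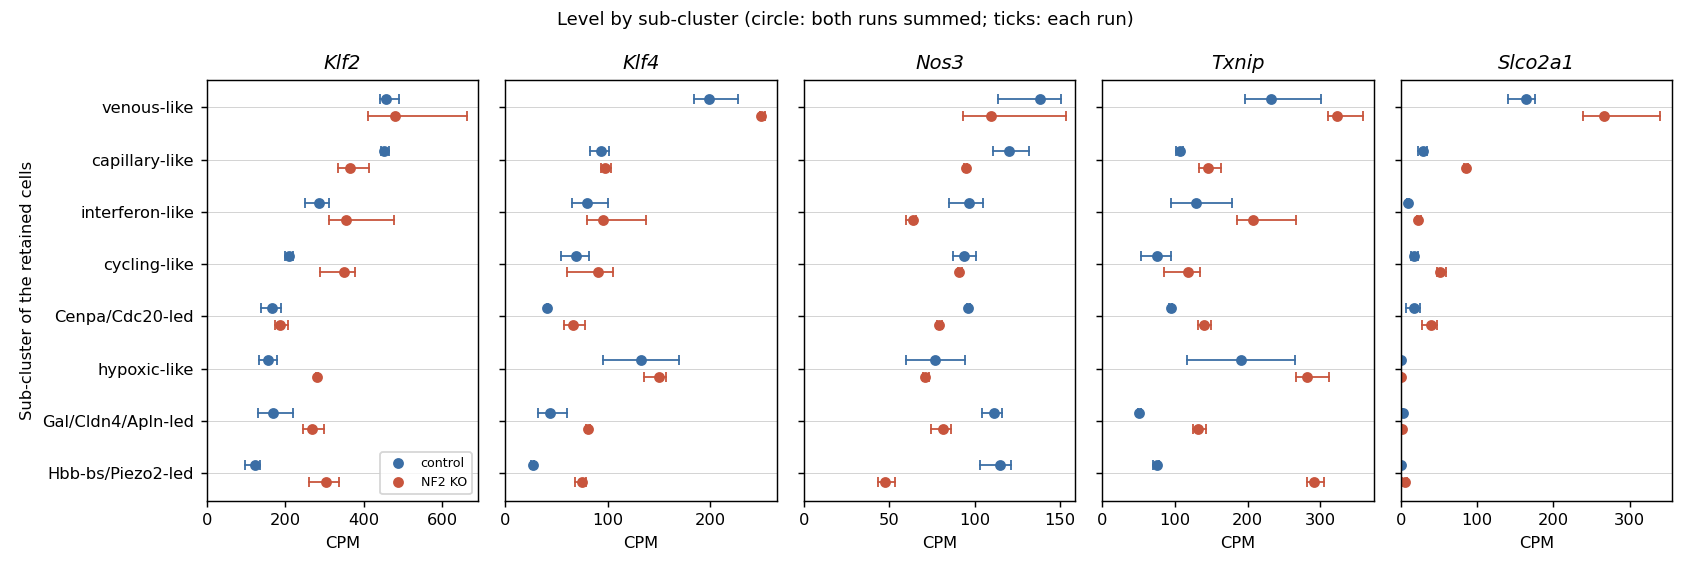
Level of each gene (CPM, linear axes from 0) in the 8 sub-clusters with at least 50 cells in each library. Circles are both runs summed and ticks are the single runs, control in blue and knockout in red. Slco2a1 is highest in the venous-like cells in both libraries (164 and 267 CPM), while Nos3 goes from 76.9 to 138 CPM in the control and from 47.5 to 109 CPM in the knockout library.

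Within the sub-clusters, Txnip and Klf4 were higher in the knockout than in the control library in 8 of 8, which held for 7.18% of all genes measured. Nos3 was lower in 8 of 8, which held for 15.2% of genes. The ratio of Txnip went from 1.35 in the capillary-like cells to 3.87 (3.25 to 4.61) in the Hbb-bs and Piezo2 sub-cluster. That of Klf4 went from 1.04 (0.923 to 1.18) in the capillary-like cells to 2.74 (1.99 to 3.77) in the Hbb-bs and Piezo2 sub-cluster. Nos3 was 2.42-fold lower (1.81 to 3.29) in that sub-cluster and had a ratio of 0.974 (0.834 to 1.14) in the cycling-like cells. Its runs did not overlap in 5 of 8 sub-clusters. Over whole libraries, 64.9% of all genes had such runs. The share within sub-clusters is not given, here or for the counts of this kind below. Of the 8 sub-clusters, that led by Hbb-bs and Piezo2 thus held the widest gap between the libraries for Klf2, Klf4, Nos3 and Txnip, from 136 control and 72 knockout cells. When the cells were first clustered with all genes, however, 97.8% of these control cells fell into 1 cluster (574 control and 8 knockout cells) and 86.1% of these knockout cells into another (17 control and 869 knockout cells). The same pair of clusters held, in the Gal, Cldn4 and Apln sub-cluster, 93.6% of control and 91.0% of knockout cells. In these 2 sub-clusters the libraries were therefore joined only once the differing genes were left out and values were centred within each run. The 2 changes were made together, and the part of each was not tested. In the venous-like sub-cluster, 45.8% of knockout and 36.7% of control cells came from 1 shared cluster. Another 44.0% of its knockout cells came from a cluster of 22 control and 333 knockout cells. Of its control cells, 42.2% came from one of 211 control and 580 knockout cells. In the capillary-like and the interferon-like sub-clusters, 25.4% of control cells came from the cluster of 574 control and 8 knockout cells. Whether any of these sub-clusters holds the same kind of cell in both libraries was not tested.

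Klf2 was not higher in every state. Its ratio was 2.50 (2.15 to 2.91) in the Hbb-bs and Piezo2 sub-cluster, 1.79 (1.61 to 1.99) in the hypoxic-like, 1.67 (1.52 to 1.84) in the cycling-like and 1.59 (1.49 to 1.70) in the Gal, Cldn4 and Apln sub-cluster. In the capillary-like cells it was 0.810 (0.764 to 0.859), with levels of 444 and 464 CPM in the control runs and 414 and 335 CPM in the knockout runs. There the knockout runs lay below the control runs. In the venous-like cells the ratio was 1.05 (0.952 to 1.16) and the runs overlapped. In the control library Klf2 thus spanned 3.74-fold from the lowest to the highest sub-cluster, against 2.56-fold in the knockout library.

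Slco2a1 had both knockout runs above both control runs in 6 of 8 sub-clusters, and below them in the Gal, Cldn4 and Apln sub-cluster, where it had 18 and 14 UMIs. Its ratio was 1.62 (1.39 to 1.90) in the venous-like, 2.99 (2.45 to 3.67) in the capillary-like and 2.99 (2.19 to 4.16) in the cycling-like cells. In the Hbb-bs and Piezo2 sub-cluster it had 0 control and 6 knockout UMIs, at least 5.02-fold higher against a floor of 3 counts in the control cells. When the 8 sub-clusters were weighted alike in both libraries, the ratio over them was 2.02, and that of Txnip was 1.69. This setting also leaves out the cells outside the 8, among them the Sult1a1, Cyp4b1 and Lpl sub-cluster with Txnip at 687 CPM in 220 knockout cells. The part of each change was not tested.

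A second view ranked the cells of each run by the summed level of a marker list and set the highest quintile against the other cells of that run. A class cut from such a score is a range of cells and not a type. In the venous quintile Slco2a1 stood at 30.3 and 45.1 CPM in the control runs and at 121 and 110 CPM in the knockout runs. The other cells of those runs stood at 12.9, 14.4, 22.03 and 27.3 CPM. The quintile was thus 2.35 to 5.51 times as high in the 4 runs, and 0.172% of genes outside the list reached a ratio of 2 in every run. Ctla2a alone held 83.6% of the venous sum in control cells and 65.6% in knockout cells. Without Ctla2a, a setting chosen after the data were seen, the ratio of Slco2a1 was 5.83 and 10.6 in the control runs and 8.81 and 8.16 in the knockout runs. In the hypoxic quintile Slco2a1 had 0.00936 to 0.0517 times the level of the other cells, and in the tip quintile 0.0986 to 0.175 times. Tip markers are those of the leading cells of vessel sprouts. Klf2 was higher in the arterial, venous, capillary and interferon quintiles of all 4 runs and lower in the hypoxic, tip and cycling quintiles of all 4. In the arterial quintile its ratio was 1.81 and 1.93 in the control runs and 1.19 and 1.18 in the knockout runs. Cxcl12 held 14.996% of the arterial sum in control cells but 55.2% in knockout cells, and without it the ratios were 1.74 and 1.77 against 1.73 and 1.47. Klf4 was 1.08 to 1.44 times as high in the tip quintile, where Klf2 was at 0.578 to 0.959 times. The interval of Klf4 there included 1 in control run 2 (0.918 to 1.27) and knockout run 1 (0.995 to 1.24). That of Klf2 included 1 in knockout run 1 (0.900 to 1.02). Txnip was 1.68 to 2.08 times as high in the capillary quintile and 0.479 to 0.888 times as high in the cycling quintile. Nos3 stayed between 0.681 and 1.47 in all 8 lists and 4 runs. In the arterial quintile Nos3 was at 0.997 to 1.08 times, and at 1.13 to 1.33 times without Cxcl12. In the venous quintile Txnip was at 0.871 to 1.03 times, and at 1.39 to 2.09 times without Ctla2a. These settings were also chosen after the data were seen.

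Klf2 and Klf4 moved with the genes that tissue dissociation induces. The list of these holds 17 early response and heat shock genes, such as Fos, Jun, Atf3 and Hspa1a. From the lowest to the highest quartile of cells by their summed level, Klf2 went from 121 to 423 CPM and from 177 to 377 CPM in the control runs, and from 194 to 675 CPM and from 178 to 493 CPM in the knockout runs. Klf4 went from 26.5 to 173 CPM and from 39.8 to 133 CPM in the control runs, and from 36.2 to 215 CPM and from 41.9 to 212 CPM in the knockout runs. The highest quartile was thus 2.13 to 3.501 times the lowest for Klf2 and 3.34 to 6.51 times for Klf4, and 0.722% of genes outside the list reached a ratio of 2 in every run. Txnip was 2.07 to 2.29 times as high in 3 runs and 0.988 times in control run 2. Nos3 was at 0.871 to 1.06 times and Slco2a1 at 0.760 to 2.21 times.

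The dissociation genes themselves did not stand higher in the knockout library. Their summed level was 7609 and 7212 CPM in the control runs and 5744 and 6010 CPM in the knockout runs, and the median of their log2 ratios was −0.30. Of the 17, 3 were lower (Zfp36, Egr1 and Jund), 2 were higher (Hspa1a and Socs3) and 12 were not called. Of all genes measured, 5.5% were lower and 2.76% higher. Egr1, a zinc-finger early response gene, stood at 448 CPM in control cells against 258 CPM in knockout cells, and Fos, a subunit of AP-1, at 595 and 658 CPM. Among cells at or below the median summed level of the list (569 control and 1464 knockout cells), the ratio was 1.2501 (1.19 to 1.32) for Klf2 and 1.43 (1.29 to 1.60) for Klf4. In these cells it was 1.73 for Txnip, 2.47 for Slco2a1 and 0.714 for Nos3.

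**Figure D4:**
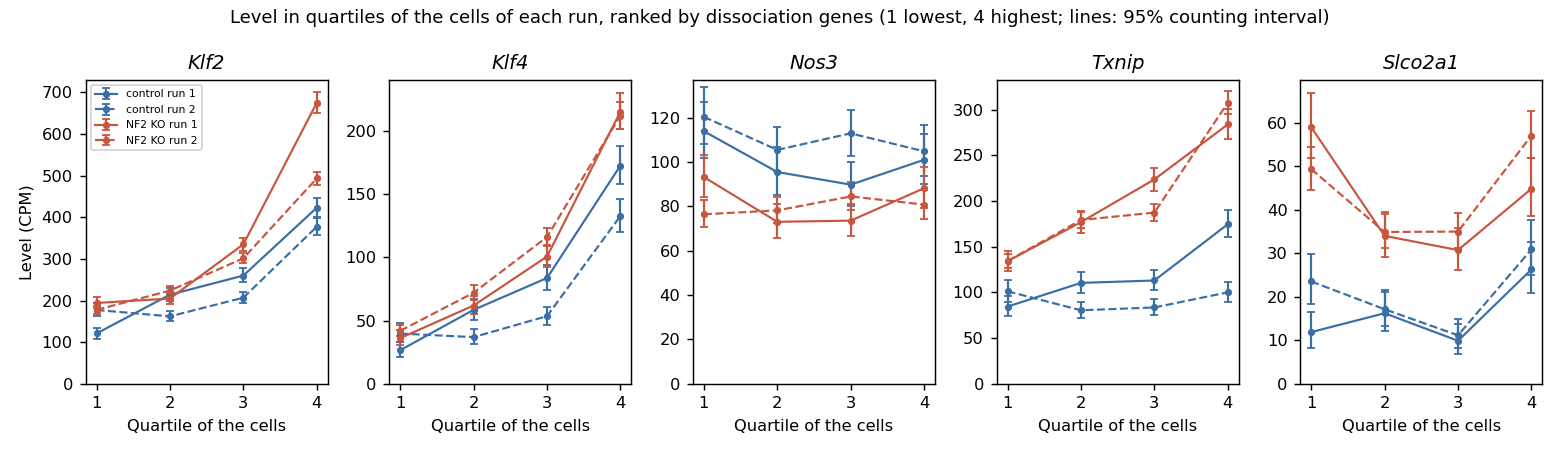
Level of each gene (CPM, linear axes from 0) in quartiles of the retained cells of each run, ranked by the summed level of 17 dissociation genes from lowest (1) to highest (4). Blue lines are control runs, red lines knockout runs, solid run 1 and dashed run 2, with 95% counting intervals. Klf2 and Klf4 are 2.13 to 6.51 times as high in the highest as in the lowest quartile, and Nos3 is nearly level.

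Across 29 sums of a sub-cluster in a run, centred within each run, the genes most like Klf2 were Fos (Pearson r 0.86), Acer2 (0.80), S1pr1 (0.79), Zfp36 (0.78) and Jun (0.76). S1pr1 encodes a sphingosine receptor that endothelial cells use in sensing flow. Those most like Klf4 were Ppp1r15a (0.83), Exoc6, Fos (both 0.81), Lims2 (0.80) and Ier3 (0.79). Those most like Txnip were Ablim1 (0.89), Mcl1 (0.88), Ppp1r15a (0.88), Ppfibp1 (0.84) and Gadd45b (0.83). Slco2a1 was most like Selp (0.95), the venular adhesion molecule P-selectin, then Csrp2, Entpd1, Syngr2 (all 0.93) and Arf2 (0.91). Nos3 was most like Cdr2l, Itga2 (both 0.81), Tspan9 (0.79), C1qtnf6 and Pde4d (both 0.78). Among the 5 genes, Klf4 and Txnip had the highest likeness (0.75), Klf2 and Klf4 had 0.60, and Klf2 and Nos3 had 0.10. Nos3 and Txnip had −0.58. These are descriptions over sums that share their libraries, runs and depth.

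In single cells thinned to 2000 UMIs, Klf2 was found more often in cells with a UMI of any one of the other 4 genes than in cells without it, in each run. In the control runs 39.6% and 46.9% of the cells with a UMI of Klf4 also had one of Klf2, against 27.1% and 24.6% of the cells without. In the knockout runs these shares were 51.4% and 43.2%, against 34.7% and 33.7%. The gain in percentage points went from 9.49 to 22.3 beside Klf4, from 8.85 to 33.2 beside Slco2a1, from 4.21 to 10.7 beside Txnip and from 4.31 to 6.83 beside Nos3. For Klf4 it went from 3.76 to 12.6 beside Txnip and from 9.51 to 26.9 beside Slco2a1. The remaining pairs changed sign between runs: Klf4 beside Nos3 (−3.33 to 8.51), Nos3 beside Txnip (−5.69 to 3.59), Nos3 beside Slco2a1 (−9.41 to 10.9) and Txnip beside Slco2a1 (−2.22 to 17.2). No such gain is given here for other genes.

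The wider flow response was read from 8 gene lists that do not hold these 5 genes. Of 124 genes, 82 had at least 20 CPM, of which 14 were higher, 11 were lower and 57 were not called, with a median log2 ratio of −0.08. The balance turned with the size limit: at a 25% difference 19 were higher and 24 lower, and with no minimum CPM 24 were higher and 14 lower. The median over all 5838 genes was −0.03, and 8.26% of them were called in either direction (2.76% higher and 5.5% lower). The lists were drawn up with earlier results of these data known.

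Most of the genes that steady flow is known to hold down were higher in the knockout library. Of 13 with enough counts, 11 were higher (2.76% of all 5838 genes), none was lower (5.5%) and 2 were not called, with a median log2 ratio of 0.91. Edn1, which encodes the vasoconstrictor endothelin 1, had 142 and 125 CPM in the control runs against 625 and 602 CPM in the knockout runs, a ratio of 4.58 (4.43 to 4.74). Tgfb2, a TGF-beta ligand, had a ratio of 2.80 (2.59 to 3.03), with 26.9 and 75.4 CPM. Among the further members called higher were Bmp4 (2.44), Cxcl1 (2.26), Ccl2 (1.93), Cyr61 (1.88), Ace (1.87), Icam1 (1.80), Ctgf (1.65) and Angpt2 (1.51). Cyr61 and Ctgf are also known as targets of YAP and TAZ, the factors that the Hippo pathway restrains. Vcam1 (1.28) and Pdgfb (1.08) were not called.

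A list of genes that steady flow is known to raise, which leaves out the 5 genes, had 17 with enough counts. None was higher (2.76% of all 5838 genes), 3 were lower (5.5%) and 14 were not called, with a median of −0.12. Sema7a, a semaphorin, went from 238 to 115 CPM (ratio 0.484, 0.467 to 0.501), and Timp3, a metalloprotease inhibitor, from 308 to 177 CPM (0.575, 0.558 to 0.592). Adamts1 was the third, at 0.602. Thbd, the thrombomodulin gene and a known KLF2 target, had 34.5 and 47.7 CPM, a ratio of 1.38 (1.28 to 1.49) that was not called.

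Upstream of the KLF genes, the flow sensors held 4 lower and 1 higher of 16 genes, with a median of −0.20. Of all genes measured, 5.5% were lower and 2.76% higher. Flt4 (VEGF receptor 3) stood at 64.4 and 32.6 CPM and Nrp1 at 189 and 109 CPM, with ratios of 0.506 and 0.577, and Itga5 and Cdh5 were the other lower genes. Sdc4, a proteoglycan of focal adhesions, was higher at 2.13 (1.98 to 2.29). Piezo1, a channel opened by flow, had a ratio of 0.859 (0.815 to 0.905). None of 10 genes of the MEKK3 relay and its CCM brake was called. Pdcd10, a CCM gene, had a ratio of 0.990 (0.954 to 1.03), and Mef2c, a factor that acts on the Klf2 promoter, had one of 0.676 (0.651 to 0.702).

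Around Nos3, 1 of 16 genes of nitric oxide production was higher (2.76% of all genes measured) and 3 were lower (5.5%), with a median of −0.08. Ddah1 and Ddah2 remove an inhibitor of the synthase and went opposite ways: Ddah1 had a ratio of 1.76 (1.68 to 1.84) and Ddah2 one of 0.557 (0.532 to 0.584). Nostrin, a trafficking protein of the synthase, went from 83.0 to 45.0 CPM (0.542, 0.511 to 0.575). The third lower gene was the haemoglobin gene Hbb-bs (0.461), a red cell transcript whose runs overlapped, with 50.9 and 13.1 CPM in the control runs against 1.78 and 21.3 CPM in the knockout ones. Cav1, which binds and restrains the synthase, had a ratio of 1.30 (1.28 to 1.32).

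Around Slco2a1, the prostaglandin list had only 2 genes with enough counts, Ptges3 (ratio 1.09) and Abcc4 (1.01), and neither was called. Around Txnip, 1 of 7 genes of the thioredoxin and glucose list was lower (5.5% of all genes measured) and none was higher (2.76%). The lower gene was Arrdc3, an arrestin of the same family as Txnip, with 82.3 and 46.0 CPM (0.559, 0.528 to 0.593). Txn1, the thioredoxin that Txnip binds, had a ratio of 1.13 (1.11 to 1.15), and the glucose transporter gene Slc2a1 one of 0.752 (0.725 to 0.779). Of 6 other KLF genes with enough counts 1 was higher, Klf9, with 20.2 and 37.2 CPM (1.84, 1.67 to 2.02), and the others were not called.

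**Figure D5:**
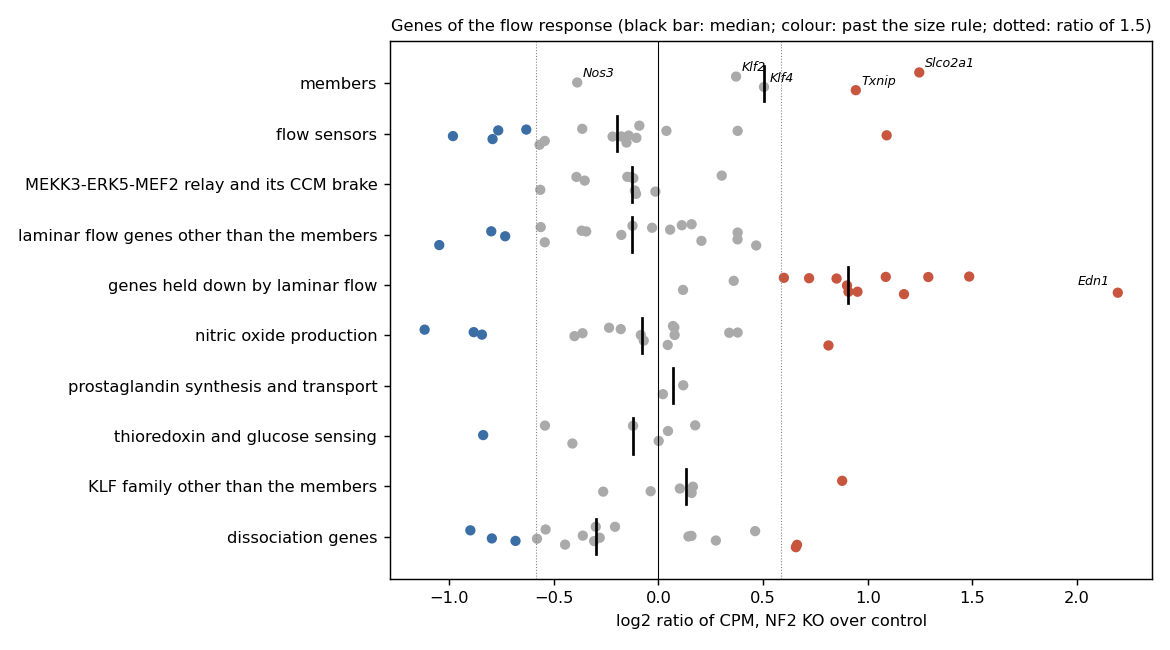
Ratio of CPM (knockout over control, log2 axis) of the 5 genes, of 8 lists of the flow response and of the dissociation genes, for genes of at least 20 CPM. Red and blue points passed the size rule as higher and lower, grey points did not, black bars are medians and dotted lines mark a ratio of 1.5. In the list of genes held down by flow 11 of 13 points are red.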

How the data were processed

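The authors deposited natural log values, 1 table per library. Read as the natural log of 1 plus UMIs per 10000 in a cell, 100% of them gave whole counts within 0.01 UMI, and these counts were used as the design assumed. The submitters' processing notes name Cell Ranger 3.0.0, Seurat 3.1.1 and mm10, and give no role here. A cell needed at least 500 genes, 1000 UMIs and no more than 10% mitochondrial UMIs, and the 5% of each library with the highest doublet score (129 control and 166 knockout cells) were removed.

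Clustering used 2000 variable genes, 30 principal components and 15 neighbours (leidenalg 0.10.2, resolution 0.8). Of 19 clusters, 9 were left out: 7 with a median depth under 0.333 of their library and no endothelial marker among 10 leading genes, and others with at least 2 more leukocyte than endothelial markers. Counts of retained cells were summed (scipy 1.17.1), with exact Poisson, conditional and Clopper-Pearson intervals at 95%. Sub-clustering left out 479 genes. The size rule was tested on simulated counts that held counting error only. That test does not cover differences between runs, animals or mixtures of cells. Named genes are the 5 genes, up to 2 extremes per list and direction and the 5 of most like pattern. Further genes of a list were named after their values were seen. Members and lists were chosen with earlier results of these data known.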

Additional observations from a re-analysis of the deposited data

Results flagged for a closer look

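Klf2 went opposite ways in different sub-clusters. Both knockout runs lay above both control runs in the Gal, Cldn4 and Apln sub-cluster (ratio 1.59), the hypoxic-like (1.79), interferon-like (1.249) and cycling-like cells (1.67) and the Hbb-bs and Piezo2 sub-cluster (2.50). They lay below them in the capillary-like cells (0.810). Slco2a1 was higher in the capillary-like (2.99), interferon-like (2.50), venous-like (1.62) and cycling-like cells (2.99) and in the Cenpa and Cdc20 sub-cluster (2.29), and at least 5.02-fold higher in the Hbb-bs and Piezo2 sub-cluster. It was lower in the Gal, Cldn4 and Apln sub-cluster (0.387), from 18 control and 14 knockout UMIs. In the sub-clusters led by Gal, Cldn4 and Apln and by Hbb-bs and Piezo2, most cells of each library had first fallen into clusters of their own. The venous-like cells of the libraries had come partly from different clusters. The difference between sub-clusters was not tested, since runs are not known to be replicates. No share of all genes with runs apart within a sub-cluster is given beside these counts.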

How the results depend on the processing

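In all 14 alternative settings tried, Klf2, Klf4, Txnip and Slco2a1 kept ratios above 1 and Nos3 a ratio below 1. Without clusters led by another cell type the ratios were 1.40 for Klf2, 0.840 for Nos3, 1.68 for Txnip and 3.95 for Slco2a1. These clusters held 98 control and 1341 knockout cells, so the libraries lost cells unevenly. Thinned cells gave 1.36 for Klf2, 2.20 for Txnip and 1.94 for Slco2a1. Cells low in dissociation genes gave 1.2501 for Klf2, 0.714 for Nos3 and 1.73 for Txnip. Equal weight per cell gave 1.2502 for Klf2, 2.19 for Txnip and 1.70 for Slco2a1. Weighting the 8 sub-clusters alike in both libraries, which leaves out the other cells, gave 1.24 for Klf2, 1.30 for Klf4, 1.69 for Txnip and 2.02 for Slco2a1. With doublets kept Klf4 had 1.53. Leaving out 1 run at a time gave ranges of 1.21 to 1.42 (Klf2), 1.23 to 1.65 (Klf4), 0.727 to 0.809 (Nos3), 1.66 to 2.24 (Txnip) and 2.15 to 2.68 (Slco2a1). The cause of these shifts was not tested. With the size limit at a 25% difference 5 of the 5 genes passed, with a limit of 2 only Slco2a1 did, and 2 to 3 passed 1.5 with a run left out (Klf4 is the third, without control run 1). Of the wider lists 25 genes were called, 43 at 25%, 8 at 2 and 38 with no minimum CPM, and 24 to 29 with a run left out. Of all genes 482 were called, 1148 at 25%, 156 at 2 and 2248 with no minimum, and 412 to 594 with a run left out. Without control run 2, 14 of the wider genes were higher and 15 lower. Leaving out sub-clusters 9 and 11, chosen after seeing the data, moved no ratio beyond its interval. No paired analysis was possible because each group is 1 library. The totals of UMIs limit Slco2a1 most, with 489 UMIs in the control library.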
